A study of Mus musculus with 18 samples.

Results

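The vacuolar H+-ATPase (V-ATPase) was followed through 10 of its subunit genes, taken by symbol from a table of 54307 genes. The membrane sector V0 was represented by 5 genes, Atp6v0a1, Atp6v0b, Atp6v0c, Atp6v0d1 and Atp6v0e, and the cytosolic sector V1 by 5, Atp6v1a, Atp6v1b2, Atp6v1d, Atp6v1e1 and Atp6v1f. All 10 passed the filter on low values. Poly(A) RNA came from primary mouse brain cultures labelled as astrocyte, microglia or neuron and from the small extracellular vesicles (sEVs) these release, with 3 replicates for each of the 6 groups, 18 libraries in all. No group carries a treatment or an engineered allele in the labels, which give neither strain nor age, nor whether replicates were separate cultures. All p-values therefore measure only the spread between these libraries. The series asks which mRNAs sEVs of each cell type carry, and here the question was how the mRNAs of the membrane and the cytosolic sector differ between sEVs and cells.

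The V-ATPase is a rotary proton pump. The cytosolic V1 sector hydrolyses ATP, and a central stalk passes the rotation to the ring of proteolipid subunits in the V0 sector, which carries protons across the membrane. The pump acidifies lysosomes, endosomes and Golgi compartments in every cell, and in neurons its proton gradient also drives transmitter uptake into synaptic vesicles. Membrane-spanning proteins such as the a, c and e subunits are made by ribosomes at the endoplasmic reticulum, whereas V1 proteins are made on ribosomes free in the cytosol. Subunit d belongs to V0 but spans no membrane and sits on the cytosolic face of the ring.

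The 2 sectors also differ, with some overlap, in their coding sequences, to which the sEV values are compared further on. Codons with T as the middle base encode only the hydrophobic residues Phe, Leu, Ile, Met and Val. For each gene the stretch of 30 codons with the most of them is given here, 5′ to 3′, from the GENCODE vM21 coding sequence, with each middle T in capitals. The 3 membrane-spanning V0 subunits shown have 19, 19 and 16 such codons of 30 in the order Atp6v0a1, Atp6v0c and Atp6v0e. The d subunit gene Atp6v0d1 has 14, the catalytic-ring gene Atp6v1b2 12 and the stalk gene Atp6v1f 13. In the same order the stretches are codons 396 to 425, codons 123 to 152, codons 1 to 30, codons 93 to 122, codons 45 to 74 and codons 36 to 65. Of the members not shown, Atp6v0b has 18 such codons, Atp6v1d and Atp6v1e1 have 14 and Atp6v1a has 13. Outside the members, V0 genes have 13 (Atp6v0d2) to 21 (Atp6v0a2) and V1 genes 10 (Atp6v1g2) to 16 (Atp6v1e2).
Atp6v0a1: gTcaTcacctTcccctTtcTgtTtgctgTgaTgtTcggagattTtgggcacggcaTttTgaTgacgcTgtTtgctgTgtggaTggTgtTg
Atp6v0c: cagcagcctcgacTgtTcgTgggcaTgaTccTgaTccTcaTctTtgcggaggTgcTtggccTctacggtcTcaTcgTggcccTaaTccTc
Atp6v0e: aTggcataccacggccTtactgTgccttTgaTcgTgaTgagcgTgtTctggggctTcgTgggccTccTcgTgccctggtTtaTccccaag
Atp6v0d1: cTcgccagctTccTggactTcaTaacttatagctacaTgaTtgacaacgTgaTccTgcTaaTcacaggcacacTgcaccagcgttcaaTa
Atp6v1b2: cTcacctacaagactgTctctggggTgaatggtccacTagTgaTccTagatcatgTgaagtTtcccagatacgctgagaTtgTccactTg
Atp6v1f: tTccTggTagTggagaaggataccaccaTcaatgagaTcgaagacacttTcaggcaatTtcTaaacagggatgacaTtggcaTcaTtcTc

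Library totals ran from 36947428 to 69276566 normalized counts. Values in the text are these normalized counts unless a log2 difference is named. Markers of the labelled type were present in each cell group. Summed over 6 markers, astrocyte genes reached 926784 to 1140387 in astrocyte cells, and over 7 markers microglia genes reached 76021 to 88311 in microglia cells and at most 116 in the other cells. Neuron markers, 6 genes, summed to 211802 to 255748 in neuron cells. Markers of other types were present as well: all 6 oligodendrocyte-lineage markers were present in astrocyte cells, summing to 221988 to 402948, and in neuron cells, summing to 27533 to 88457. Astrocyte markers summed to 133430.0 to 146558 in neuron cells, where all 6 were present, and neuron markers to 12384 to 16991 in astrocyte cells. Microglia cells held astrocyte markers as well, summing to 3654 to 14432. In sEVs, oligodendrocyte-lineage markers summed to 73967 to 163285 (astrocyte) and 7598 to 14122 (neuron). In neuron sEVs astrocyte markers summed to 107380 to 150724, above the neuron markers, at 64823 to 89593. The neuron sEV and neuron cell groups thus differed in their mix of markers. Fibroblast markers, 4 genes, reached 101 to 10602 in microglia cells. Endothelial markers, also 4, stayed at or below 2117 in every group. The part of these other cells in the results below was not tested.

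Averaged over the 3 cell types, all 5 V0 mRNAs were lower in sEVs than in cells and the V1 mRNAs went both ways. In limma's fit of log2(normalized count + 1), 5 of 5 V0 genes and 2 of 5 V1 genes fell, and 2 V1 genes rose, at a Benjamini-Hochberg adjusted p under 0.05, the threshold for a gene to be called here. Of all genes tested, 37.1% were lower and 12% higher. The median log2 difference was -1.41 for V0, -0.23 for V1 and -0.93 for all genes tested. In astrocytes, microglia and neurons, in this order, the median was -2.27, -1.13 and -1.50 for V0. For V1 it was 0.09, -0.06 and -1.04, and for all genes tested -0.60, -0.79 and -0.47. The V1 median thus lay above that of all genes in astrocytes and microglia and below it in neurons. In astrocytes 4 V0 genes fell and none of the 5 V1 genes did, while 2 V1 genes rose, against 18.6% of all genes lower and 8% higher. Microglia had 4 V0 genes down, 0 V1 genes down and 1 V1 gene up, with 21.2% and 5.08% of all genes lower and higher. In neurons all 5 V0 genes and 3 V1 genes fell and 1 V1 gene rose, against 18.9% and 11.1%. Libraries are bulk samples scaled to one another, so fewer cells or vesicles of a kind and less RNA in each cannot be told apart. With quantile normalization the median of all genes moved by 0.76, 1.05, 0.55 and 1.004 log2 units in astrocytes, microglia, neurons and the mean of types, and with equal library totals by -0.17, 0.27, -0.30 and -0.072. Of all genes called, the higher ones made up 30.1, 19.4, 37.1 and 24.4% as deposited and 49.5, 55.2, 51.2 and 52.7% with quantile normalization.

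Every sEV library lay below every cell library of its type for 5 of 5 V0 genes in astrocytes, 4 in microglia and 5 in neurons. The same held for 1, 0 and 3 of the 5 V1 genes. Over all genes tested the shares were 27.2%, 24.9% and 34.2% for astrocytes, microglia and neurons. Complete separation in the other direction was seen for 1 V1 gene in each type, Atp6v1b2 in astrocytes and Atp6v1f in microglia and neurons. The background for that direction was 15.3%, 8.45% and 22.7%.

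**Figure D1:**
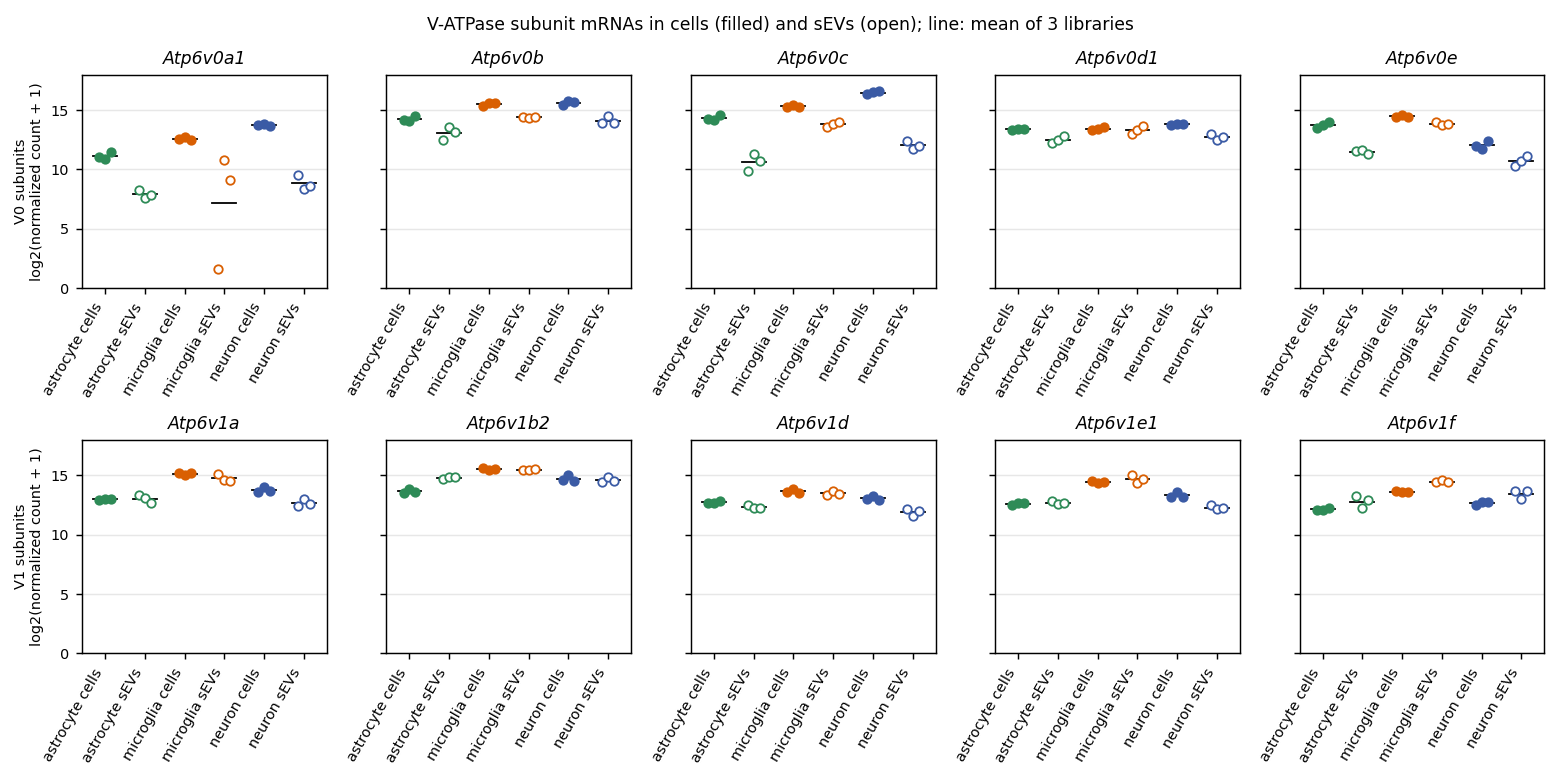
Level of each subunit mRNA in every library, as log2(normalized count + 1) on the y axis, for the 6 groups on the x axis, with filled points for cells, open points for sEVs and a line at the mean of 3 libraries. V0 genes are in the upper row, where open points lie below filled ones except for Atp6v0d1 in microglia, and V1 genes in the lower row, where the groups are closer.

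Among the V0 genes, the proteolipid Atp6v0c, which forms most of the rotating ring in the membrane, fell in all 3 cell types. Astrocyte cells held 19499.9, 18198 and 24958 and their sEVs 910.5, 2466 and 1672. Neuron cells held 81881, 92217 and 97418 and neuron sEVs 5495, 3457 and 4029. In microglia the values were 38257, 44634 and 40237 in cells and 11918, 14796 and 16442 in sEVs. No sEV library reached a cell library of its type, and the microglia groups lay closest. The log2 difference between sEVs and cells was -3.73 ± 0.27 in astrocytes (± SE of the fit, limma, adjusted p = 1.94e-07), -1.52 ± 0.27 in microglia (adjusted p = 0.000761) and -4.41 ± 0.27 in neurons (adjusted p = 1.7e-08), a fall called in each type. As ratios of fitted values, the sEV level was 13.3-fold, 2.87-fold and 21.3-fold lower.

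The second proteolipid of the ring, Atp6v0b (subunit c″), moved less. It held 18371, 17689.8 and 23608 in astrocyte cells and 5828, 12259 and 8975 in astrocyte sEVs. In microglia cells it held 42691, 48875 and 49892, and in their sEVs a narrow 21678, 21247 and 21556. Neuron cells held 44773, 54473 and 52209.8 against 15279.6, 23662 and 15564 in sEVs. All 3 types were thus separated without overlap. It fell in each, with differences of -1.19 ± 0.22, -1.13 ± 0.22 and -1.50 ± 0.22 log2 units in astrocytes, microglia and neurons (limma, adjusted p = 0.000929, 0.00139 and 9.59e-05). Although Atp6v0b and Atp6v0c encode homologous ring subunits, their mean differences over the types were of unlike size, -1.27 ± 0.13 against -3.22 ± 0.16. A predicted gene, Gm12841, overlaps Atp6v0b on the opposite strand, and Atp6v0c has processed pseudogenes. The library kit does not mark strand, so reads of such neighbours cannot be told apart.

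Atp6v0a1, the a subunit that lines the proton path beside the ring and is the main isoform of nerve terminals, was the scarcest of the 5 V0 mRNAs in sEVs. Its values were 2112, 1885 and 2898 in astrocyte cells and 313, 192 and 231 in astrocyte sEVs. Neuron cells held 13346, 14204 and 12958, the highest of any group, and their sEVs 749, 319 and 398. Microglia cells held 6078, 6864 and 5561, but the sEV libraries scattered, at 1.97, 1762 and 543. The sEV groups lay below the cell groups throughout, and microglia sEV replicate 1 stood apart from all other libraries. Atp6v0a1 fell in microglia and neurons, with log2 differences of -5.44 ± 1.52 in microglia (adjusted p = 0.0157) and -4.88 ± 1.52 in neurons (adjusted p = 0.0242). The astrocyte difference of -3.22 ± 1.52 missed the threshold (adjusted p = 0.137) in this fit, whose SE is shared by all groups. Without microglia sEV replicate 1 the values were -3.22, -2.65 and -4.88 in astrocytes, microglia and neurons, all called by limma (adjusted p = 3.58e-05, 0.000543 and 4.54e-07). The neuron call was lost when any of 5 neuron libraries was left out, all but sEV replicate 1 (adjusted p = 0.0601 to 0.0715).

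Atp6v0e, a small hydrophobic subunit of V0, held 11868, 13826 and 15992 in astrocyte cells and 3092, 3106 and 2451 in their sEVs. In neurons these were 4042, 3304 and 5429 and 1235, 1666 and 2222, and in microglia 21573, 24870.1 and 22095 and 16667, 13375 and 14581. The libraries did not overlap in any type, but the microglia gap was small. Atp6v0e fell in each, with differences of -2.27 ± 0.22 in astrocytes (adjusted p = 2.63e-06), -1.33 ± 0.22 in neurons (adjusted p = 0.000265) and -0.62 ± 0.22 in microglia (adjusted p = 0.0483). The microglia difference was smaller than the median of all genes tested there, -0.79. The microglia call was not stable: leaving out any 1 of 12 libraries (astrocyte cells 1 to 3, astrocyte sEVs 1 and 2, microglia cells 1 to 3, microglia sEVs 2 and 3, neuron cells 1 or neuron sEVs 2) gave an adjusted p of 0.0501 to 0.149. It was also lost with a pseudocount of 10, no filter, quantile normalization, both scalings to equal totals and the replicate block (adjusted p = 0.0535 to 0.453), and the difference was -0.26 at its smallest.

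Atp6v0d1, the d subunit that couples the central stalk to the ring, fell least of the V0 genes. Astrocyte cells held 10423, 10957 and 10737 and sEVs 4772, 5721 and 7231. Neuron cells held 13699, 14553 and 14306 and sEVs 8051, 5679 and 6802. In microglia the 10486, 10695 and 12267 of the cells and the 8017, 10362 and 13165 of the sEVs overlapped. The falls in astrocytes, -0.88 ± 0.18, and neurons, -1.07 ± 0.18, were called (limma, adjusted p = 0.00228 and 0.000366). In microglia the difference was -0.11 ± 0.18 (adjusted p = 0.779), with a sign that turned under 3 other scalings.

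In the V1 sector, the nucleotide-binding subunits A and B alternate around the head. Atp6v1b2, subunit B, rose in astrocyte sEVs: cells held 12049, 15222 and 12429.8 and sEVs 27293, 29314 and 29199, a 2.17-fold higher fitted level (1.12 ± 0.12 log2 units, adjusted p = 1.06e-05). Microglia cells held 49671, 45195 and 48618 and their sEVs 45049, 45345 and 46851. Neuron cells held 24362, 33129 and 24267 and their sEVs 22949, 29665 and 23198. Both of these pairs of groups overlapped, and the differences were -0.06 ± 0.12 and -0.10 ± 0.12 (adjusted p = 0.844 and 0.602). The gene Slc18a1 overlaps Atp6v1b2 on the opposite strand.

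Atp6v1a, the catalytic subunit A, changed in neurons, where cells held 12588, 16990.4 and 13108 and sEVs 5607, 8245 and 6195. It fell there (-1.10 ± 0.20, adjusted p = 0.000586). In astrocytes the values 7749, 8162 and 8442 in cells and 10554, 8806 and 6387 in sEVs overlapped (0.05 ± 0.20, adjusted p = 0.929). Microglia cells, at 38808, 33912 and 37239.7, and sEVs, at 35361, 25306 and 23342, overlapped as well (-0.41 ± 0.20, adjusted p = 0.149).

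The 2 central stalk subunits followed differed in direction. Atp6v1d, subunit D, held 8172, 10004 and 7837 in neuron cells and 4566, 3122 and 4138 in neuron sEVs, a fall (-1.15 ± 0.17, adjusted p = 9.27e-05). In astrocytes the cells, at 6457, 6548 and 7487, all lay above the sEVs, at 5933, 4876 and 4766, though the difference of -0.40 ± 0.17 was not called (adjusted p = 0.0939). Microglia cells held 12723, 15183 and 12028 and sEVs 10478, 13501 and 11275, which overlapped (-0.18 ± 0.17, adjusted p = 0.499). Atp6v1f, subunit F, was the member that rose in all 3 types. It held 4441, 4376 and 4941 in astrocyte cells and 9594, 4823 and 7780.2 in sEVs. Microglia cells held 13392, 12221 and 12418 and sEVs 21747, 24792 and 22374, and neuron cells 5826, 7027 and 6999.6 and sEVs 13009, 8268 and 12879. Only the astrocyte groups overlapped. The increases were 0.64 ± 0.22, 0.86 ± 0.22 and 0.76 ± 0.22 log2 units (limma, adjusted p = 0.0409, 0.00835 and 0.0146). The astrocyte call was lost on leaving out any 1 of 9 libraries (astrocyte cells 1 to 3, astrocyte sEVs 1 and 3, microglia cells 1 to 3 or neuron cells 3), with an adjusted p of 0.0504 to 0.182. The neuron call was lost without neuron cells 1, neuron sEVs 1 or neuron sEVs 3 (adjusted p = 0.0635 to 0.0669).

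Atp6v1e1, the peripheral stalk subunit E, fell in neurons, from 9273, 12698 and 9294 in cells to 5814, 4488 and 4787 in sEVs (-1.04 ± 0.17, adjusted p = 0.000218). Astrocyte cells at 5942, 6517 and 6352 and sEVs at 7248, 6204 and 6646 overlapped (0.09 ± 0.17, adjusted p = 0.761), as did microglia cells at 24154, 20949 and 21888 and sEVs at 33487, 20755 and 26942 (0.25 ± 0.17, adjusted p = 0.311). Atp6v1e1 shares a stretch with Slc25a18 on the opposite strand. Over the mean of the types it was the member that missed the threshold (-0.23 ± 0.10, adjusted p = 0.0599).

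**Figure D2:**
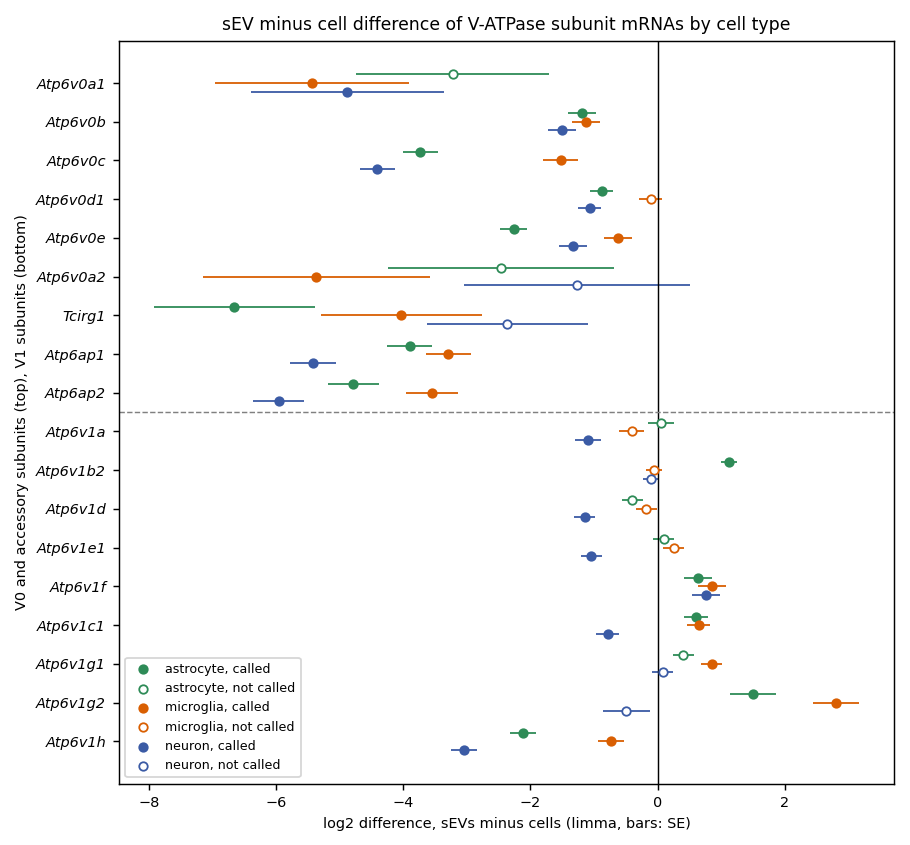
Log2 difference between sEVs and cells (x axis, limma, bars show the SE) for V0 and accessory subunits above the dashed line and V1 subunits below it, coloured by cell type, with filled points for genes called at an adjusted p under 0.05. Atp6v0a4, Atp6v0d2, Atp6v0e2 and Atp6v1c2 are not plotted. The points of the 9 V0 and accessory genes plotted lie left of 0, those of the V1 genes lie on both sides, and Atp6v1h is the V1 gene farthest to the left.

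The distance between the sectors was then taken within each library, where a common scaling factor nearly cancels, as the mean log2 level of the 5 V0 genes minus that of the 5 V1 genes. It was 0.51, 0.40 and 0.71 in astrocyte cells, -0.36, -0.12 and -0.19 in microglia cells and 0.86, 0.55 and 0.996 in neuron cells. In sEVs it was -2.45, -1.70 and -1.91 for astrocytes, -3.37, -1.34 and -1.53 for microglia and -1.23, -1.37 and -1.32 for neurons. All 9 sEV libraries lay below all 9 cell libraries, and microglia sEV replicate 1, in which Atp6v0a1 was near 0, was the lowest. The group means (± SD, n = 3) were 0.54 ± 0.16 in astrocyte cells and -2.02 ± 0.39 in their sEVs. Microglia gave -0.22 ± 0.13 and -2.08 ± 1.12, and neurons 0.80 ± 0.23 and -1.31 ± 0.07. From cells to sEVs the V0 level relative to V1 thus changed by -2.56, -1.86 and -2.11 log2 units in astrocytes, microglia and neurons. Without microglia sEV replicate 1 the microglia value was -1.21. With the median of each sector in place of its mean, the neuron value was -1.11. These values are a description, with no p-value, because the genes were chosen with results of these data known.

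**Figure D3:**
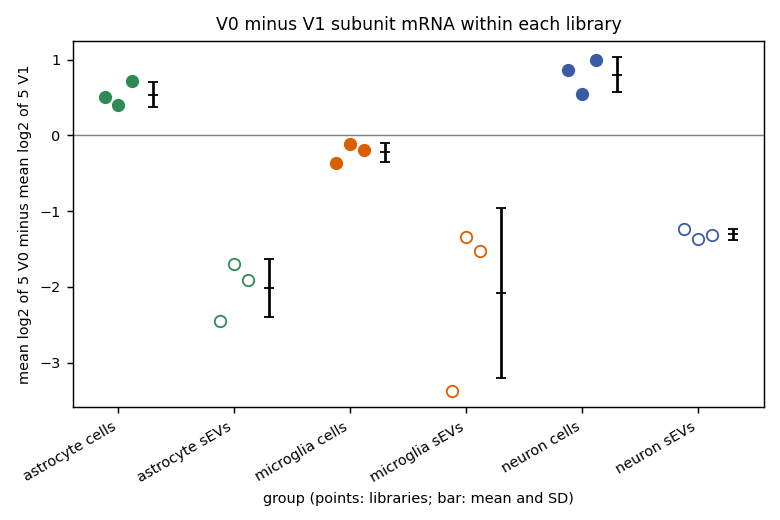
Mean log2 level of the 5 V0 genes minus that of the 5 V1 genes within each library (y axis) by group (x axis), with filled points for cells, open points for sEVs and a bar for the mean and SD of 3 libraries. Every open point lies below every filled one, and 1 microglia sEV library lies below the rest.

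The size of the sEV difference depended on the cell type for 3 V0 and 4 V1 genes by limma's F test, 7 of 10 members against 21.6% of all genes tested. The V0 genes called were Atp6v0c, Atp6v0d1 and Atp6v0e. The Atp6v0c effect was 2.89 ± 0.39 log2 units higher in microglia than in neurons (adjusted p = 7.64e-05), and the astrocyte effect minus the microglia effect was -2.21 ± 0.39 (adjusted p = 0.00117). For Atp6v0e the astrocyte effect minus the microglia effect was -1.64 ± 0.31 (adjusted p = 0.00202), and for Atp6v0d1 the microglia effect exceeded the neuron effect by 0.96 ± 0.26 (adjusted p = 0.0159).

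In the V1 sector Atp6v1a, Atp6v1b2, Atp6v1d and Atp6v1e1 were called. Against astrocytes, the neuron effect was lower for Atp6v1a by 1.15 ± 0.28, for Atp6v1e1 by 1.14 ± 0.24 and for Atp6v1b2 by 1.22 ± 0.18 (adjusted p = 0.0264, 0.0101 and 0.000541). Against microglia it was lower for Atp6v1d by 0.97 ± 0.24 and for Atp6v1e1 by 1.30 ± 0.24 (adjusted p = 0.009 and 0.00115). The astrocyte rise of Atp6v1b2 also exceeded the microglia effect, by 1.18 ± 0.18 (adjusted p = 0.000278). In all, 3 members differed between astrocytes and microglia (13.3% of all genes), 3 between astrocytes and neurons (5.09%) and 4 between microglia and neurons (20.7%). For Atp6v0a1, Atp6v0b and Atp6v1f no difference between types was called (F test, adjusted p = 0.71, 0.62 and 0.849). Without microglia sEV replicate 1 that test did call Atp6v0a1 (adjusted p = 0.0286), as it did with quantile normalization (adjusted p = 0.0366), and it called Atp6v0b with quantile normalization and with equal totals (adjusted p = 0.0237 and 0.0202). Other F test calls were lost. Atp6v0d1 was not called without microglia cells 1 or 2, microglia sEVs 2 or 3 or neuron cells 2 or 3 (adjusted p = 0.0507 to 0.0773). Atp6v1a was not called without neuron sEVs 1 or 3 or neuron cells 2 (adjusted p = 0.0523 to 0.0608). Atp6v1d was lost with the replicate block (adjusted p = 0.0733) and without neuron cells 2 (adjusted p = 0.0552). The number of members called by the F test was 4 without neuron cells replicate 2. Over all genes called in these 3 differences, 66, 48.4 and 37.7% were positive as deposited, 52.1, 59.6 and 53% with quantile normalization and 48, 57.6 and 56.1% with equal totals.

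The remaining subunit genes of the pump were examined next, 12 of 15 with enough signal. For the mean of types 6 fell and 2 rose, against 37.1% of all genes lower and 12% higher. The other a subunits followed Atp6v0a1: Atp6v0a2, found on Golgi membranes, fell (-3.03 ± 1.03, adjusted p = 0.0243) and Tcirg1, the a3 subunit of lysosomes, fell too (-4.35 ± 0.73, adjusted p = 0.00019). Tcirg1 was a microglia mRNA, at 22907, 29455 and 26154 in microglia cells against 847, 867 and 2582 in astrocyte and 717, 424 and 972 in neuron cells. Its microglia sEVs held 906, 2709 and 1639. Atp6v0a2 was listed at 0 in microglia sEV replicate 2, while replicates 1 and 3 held 888 and 1058. Without that library its mean difference was -1.93 (limma, adjusted p = 1.73e-05). Atp6v0a4, the kidney isoform, stayed at or below 73.5 in every library (-2.51 ± 0.67, adjusted p = 0.0061).

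The accessory subunits Atp6ap1 and Atp6ap2, transmembrane proteins bound to V0, showed some of the steepest falls, -4.21 ± 0.21 (adjusted p = 7.36e-10) and -4.76 ± 0.23 (adjusted p = 6.86e-10). Atp6ap2, also known as the prorenin receptor, held 28976, 39103 and 25947 in neuron cells and 648, 499 and 375 in neuron sEVs. In microglia it held 23559, 26552 and 21144 and 3885, 1111 and 1908, and in astrocytes 8219, 8185 and 12193 and 277, 552 and 253. Atp6ap1 held 49426, 64669.8 and 56918 in neuron cells and 1090.1, 1643 and 1289.8 in their sEVs. Both were called in all 3 types, with adjusted p-values of at most 1.03e-05. The second d isoform, Atp6v0d2, was listed at 0 in all astrocyte and neuron libraries except 1 of neuron cells, with 41.2. Microglia cells held 9681, 9702 and 7845 and their sEVs an overlapping 14948, 8244 and 7157 (0.09 ± 1.06, adjusted p = 1). Atp6v0e2, the second e isoform, held 44254, 48964 and 52799 in neuron cells and 21381, 24088 and 21259 in neuron sEVs, with no overlap. It was listed at 0 in microglia sEV replicate 3. Its fit gave -1.13 ± 1.58 in neurons (adjusted p = 0.664) and -1.55 ± 0.91 for the mean of types (adjusted p = 0.174). Without that library the mean was -0.55, and it was called (limma, adjusted p = 0.00187). Without microglia sEV replicate 1 it was -2.10 (adjusted p = 0.0438).

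Of the further V1 genes, the peripheral stalk subunits G rose: Atp6v1g1 by 0.44 ± 0.10 (adjusted p = 0.00152) and Atp6v1g2, the neuronal isoform, by 1.27 ± 0.21 (adjusted p = 0.000175). Atp6v1g2 rose in astrocytes (1247, 790.0 and 842 in cells, 2620.1, 2435 and 2939 in sEVs) and in microglia, where it was scarce (74, 100.2 and 117 in cells, 595, 421 and 1206 in sEVs). The 6 neuron markers summed to 112 to 290 (median 255) in microglia cells, with Syt1 at 0, and to 106 to 2548 (median 1987) in microglia sEVs, where all 6 were present. In astrocytes they summed to 12384 to 16991 in cells and 7708 to 10257 in sEVs. The part of neuron RNA in these rises was not tested. In neurons, which held most of it, the cells had 7467, 12019 and 8704 and the sEVs 5712, 8099 and 6078 (-0.49 ± 0.37, adjusted p = 0.36). Atp6v1c1, subunit C, which joins V1 to V0, rose in astrocytes (0.60 ± 0.18, adjusted p = 0.0245) and microglia (0.64 ± 0.18, adjusted p = 0.0173) and fell in neurons (-0.79 ± 0.18, adjusted p = 0.00411). Its mean over the types was 0.15 ± 0.11 (adjusted p = 0.248). The astrocyte call was lost with equal totals and without astrocyte cells 1 or 2 or astrocyte sEVs 2 (adjusted p = 0.0623 to 0.092), and the microglia call without microglia cells 2 or 3 or microglia sEVs 1 (adjusted p = 0.0571 to 0.0744). Atp6v1h, subunit H, went with the V0 genes: neuron cells held 9629, 13059 and 10609.8 and sEVs 1199.8, 1482 and 1329, a fall (-3.05 ± 0.20, adjusted p = 3.49e-08). It also fell in astrocytes and microglia, at -2.11 ± 0.20 and -0.73 ± 0.20 (adjusted p = 2.53e-06 and 0.0149). The microglia call was lost with quantile normalization, with both scalings to equal totals and without microglia cells 3, where the difference ran from -0.68 to -0.37 (adjusted p = 0.0584 to 0.268). Atp6v1c2 did not exceed 96.3 in any library (-0.16 ± 0.37 for the mean, adjusted p = 0.731). Atp6v1b1, Atp6v1e2 and Atp6v1g3 did not pass the filter.

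Neighbours of the pump in the pathway were counted from 4 lists. Of 12 assembly and regulatory factors tested, 3 fell and 0 rose for the mean of types (median -0.84), against 37.1% of all genes lower. The assembly chaperone Vma21, a small membrane protein of the endoplasmic reticulum, fell (-1.56 ± 0.12, adjusted p = 1.26e-07), as did Rnasek (-0.94 ± 0.14, adjusted p = 6.75e-05) and Rogdi, a partner of the rabconnectins that reassemble the pump (-1.30 ± 0.36, adjusted p = 0.00762). Of 8 genes listed as partners of the pump in acidification, 6 fell and 0 rose (median -3.03). In microglia all 8 fell, where 21.2% of all genes were lower. In astrocytes and neurons 3 each fell, against 18.6% and 18.9% of all genes. Microglia sEV replicate 1 was listed at 0 for Clcn3, Clcn5, Ostm1 and Tmem175, and replicate 3 for Clcn6. Clcn5 was higher in astrocyte sEVs, at 722, 965 and 944, than in astrocyte cells, at 420, 427 and 487, without a call. The lysosomal chloride-proton exchanger Clcn7 fell (-2.22 ± 0.17, adjusted p = 1.04e-07), as did Clcn4 (-2.62 ± 0.33, adjusted p = 1.14e-05) and the calcium channel Mcoln1 (-3.92 ± 0.52, adjusted p = 2.18e-05).

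The genes listed for docking mTORC1 at the lysosome went mostly the other way. Of 10 Ragulator, Rag and related genes, 6 rose and 3 fell (median 0.68), against 12% of all genes higher and 37.1% lower. The Ragulator subunits Lamtor5, Lamtor2 and Lamtor1 rose by 1.37 ± 0.07, 1.51 ± 0.12 and 0.68 ± 0.11 log2 units (limma, adjusted p = 1.19e-09, 8.66e-08 and 0.000147). Among 4 transcription factors of lysosomal genes 0 rose and 0 fell in limma's fit, with 0 at an unadjusted p under 0.05. Tfec gave 0.27 ± 0.26, Tfe3 -0.28 ± 0.33 and Tfeb -0.67 ± 1.09 (adjusted p = 0.426, 0.493 and 0.633). The median over all genes tested was -0.93.

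Among the cells themselves, the 5 V1 mRNAs were highest in microglia and the V0 mRNAs Atp6v0a1, Atp6v0c and Atp6v0d1 were higher in neurons than in microglia. In a fit of the 9 cell libraries, microglia exceeded neurons by 1.38 ± 0.12 for Atp6v1a, 1.11 ± 0.13 for Atp6v1e1, 0.94 ± 0.11 for Atp6v1f, 0.83 ± 0.14 for Atp6v1b2 and 0.62 ± 0.13 for Atp6v1d, and the last 2 turned sign under 1 other scaling each (-0.15 with quantile normalization, -0.046 with equal totals). All 5 were called (limma, adjusted p = 1.4e-05, 8.95e-05, 6.42e-05, 0.000817 and 0.00285). Atp6v0e was also higher in microglia than in neurons, by 2.45 ± 0.19 (adjusted p = 4.96e-06). Neurons exceeded microglia for Atp6v0c, Atp6v0a1 and Atp6v0d1, the microglia-minus-neuron differences being -1.14 ± 0.13, -1.13 ± 0.16 and -0.35 ± 0.09 (adjusted p = 6.69e-05, 0.000269 and 0.00646). Atp6v0b was not called (-0.10 ± 0.13, adjusted p = 0.528). The 9 members called compare with 71.7% of all genes tested.

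Astrocyte cells were lower than microglia cells for 9 of 10 members, and 20.8% of all genes tested were lower there, with 64.4% called in all. The differences ran from -2.17 ± 0.12 for Atp6v1a to -0.73 ± 0.19 for Atp6v0e, and those of Atp6v0c and Atp6v0e turned sign under other scalings (0.18 and 0.15 with quantile normalization). Atp6v0d1 gave -0.06 ± 0.09 (adjusted p = 0.609). Against neuron cells, astrocyte cells were lower for 8 members and higher for 1, with 22.1% and 10.4% of all genes called lower and higher. The neuron excess was largest for Atp6v0a1 (-2.58 ± 0.16, adjusted p = 1.25e-05) and Atp6v0c (-2.13 ± 0.13, adjusted p = 1.14e-05). The member higher in astrocytes was Atp6v0e (1.73 ± 0.19, adjusted p = 0.000181), and Atp6v1d was not called (-0.34 ± 0.13, adjusted p = 0.0874). Of all genes called between cells, 67.7, 32 and 27.8% were higher in the first-named type (astrocytes against microglia, astrocytes against neurons, microglia against neurons), 54.9, 57.1 and 48.8% with quantile normalization and 80.3, 37.1 and 18.2% with equal totals.

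Between sEVs of different origin, microglia sEVs held more of most members. In the fit of the 9 sEV libraries, 9 of 10 members were lower in astrocyte than in microglia sEVs (12.9% of all genes tested), and 7 were higher in microglia than in neuron sEVs (13.6%). Atp6v0c led the V0 genes in the first comparison (-3.20 ± 0.37, adjusted p = 0.00024) and Atp6v1e1 the V1 genes (-1.99 ± 0.20, adjusted p = 9.46e-05). Atp6v1b2 had the smallest called difference there, -0.68 ± 0.11 (adjusted p = 0.00125), which was 0.073 with quantile normalization. Atp6v0e, at 3.16 ± 0.25, and Atp6v1e1, at 2.41 ± 0.20, led the excess of microglia over neuron sEVs (adjusted p = 2e-05 and 2.24e-05). Atp6v0a1, Atp6v0b and Atp6v0d1 were not called between microglia and neuron sEVs (-1.69 ± 2.09, 0.27 ± 0.28 and 0.60 ± 0.25).

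Astrocyte and neuron sEVs differed in 2 members, both proteolipids lower in astrocyte sEVs, against 11.8% of all genes called lower. These were Atp6v0c (-1.45 ± 0.37, adjusted p = 0.0362) and Atp6v0b (-1.04 ± 0.28, adjusted p = 0.0414). The count was 0 without astrocyte sEV replicate 1 or 3, microglia sEV replicate 2 or any neuron sEV replicate, and 1 without microglia sEV replicate 1 or 3. In the same order of pairs, 67.4, 21 and 23.1% of all genes called between sEVs were higher, and 53, 46.2 and 47.8% with quantile normalization.

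Levels were compared between genes only after division by transcript length, as normalized counts per kilobase (mean ± SD, n = 3). Among the members in neuron cells, Atp6v0c led with 76505 ± 6685, followed by Atp6v0b with 50485 ± 5075 and Atp6v1b2 with 9647 ± 1801, without overlap between neighbours. Of the other subunits, Atp6v0e2 (27206), Atp6ap1 (26041) and Atp6ap2 (13486) stood above Atp6v1b2 there. In microglia cells Atp6v0b stood at 47153 ± 3897 and Atp6v0c at 34694 ± 2759, and in astrocyte cells at 19889.8 ± 3238 and 17654 ± 3032. The order of these 2 depends on the transcript length taken for Atp6v0c, here 1183 bases. With its shorter coding transcript of 796 bases, Atp6v0c stood above Atp6v0b in both, at 51561 in microglia and 26238 in astrocyte cells. The proteolipid ring holds several copies of these subunits in each pump.

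Among the members, Atp6v1f led in microglia sEVs with 32676 ± 2287 per kilobase. In astrocyte sEVs it had the highest mean of the members, 10525 ± 3426, and in neuron sEVs Atp6v0b had, 18168 ± 4759, each overlapping the member next in order. Atp6v1g1, not a member, stood above Atp6v1f in microglia sEVs (42585) and astrocyte sEVs (11995). Atp6v0c stood at 1423 ± 658, 12160.0 ± 1935 and 3658 ± 889 in the sEVs of astrocytes, microglia and neurons. With the shorter transcript it stood at 2114, 18072 and 5436. Atp6v0a1 was the last of the 10 in all 3 sEV groups, at 61.3 ± 15.4, 192 ± 225 and 122 ± 57.2. The transcript length used for Atp6v0e, 2812 bases, is uncertain, since a coding transcript of 823 bases exists. With the shorter one its level in microglia cells was 27759 in place of 8124.

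The coding feature shown above was then set against the sEV difference for all 22 subunit genes tested. Each gene was given the highest share of middle-T codons in any window of 20 codons. Among the members this was 70% for Atp6v0a1 and Atp6v0c, 65% for Atp6v0b and Atp6v0e, 55% for Atp6v0d1 and Atp6v1e1, and 50% for the other 4 V1 genes. The 9 subunits at 65% or more, the 4 a subunits, Atp6v0c, Atp6v0b, Atp6v0e and the 2 accessory proteins, had a median log2 difference of -3.22 for the mean of types, and all 9 lay between -4.76 and -1.27. The 5 at 55% had a median of -0.23 and the 8 at 50% or less one of -0.08. Atp6v0e2, an e subunit that spans the membrane as well, was among those at 55% and had -1.55, the lowest of the 5. Atp6v1h, at 50%, was the V1 gene that stood apart with -1.96. Some of the 22 genes were scarce: Atp6v0a4 (-2.51) stayed at or below 73.5 and Atp6v1c2 (-0.16) at or below 96.3 in every library. Atp6v0d2 (-0.57) was listed at 0 in astrocytes, and in neurons only cells replicate 3 held any, 41.2. Atp6v0a2 was listed at 0 in microglia sEV replicate 2. Atp6v0a1 was near 0 in microglia sEV replicate 1, without which its mean difference was -3.59.

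Across the 22 genes Spearman's rho was -0.81 and Pearson's r -0.82. For the 10 members rho was -0.88. These describe genes within the same libraries, which are not independent, so no p is given. Over all 15449 genes tested with a coding sequence rho was -0.38, and the medians were -0.03 at 40% or less, -0.50 at 45 or 50%, -1.30 at 55 or 60% and -2.10 at 65% or more. A fall of the median with this share was thus seen over genes at large as well. Transcript length gave a rho of -0.43 over the subunits and -0.07 over all genes, and GC content -0.11 and 0.03.

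**Figure D4:**
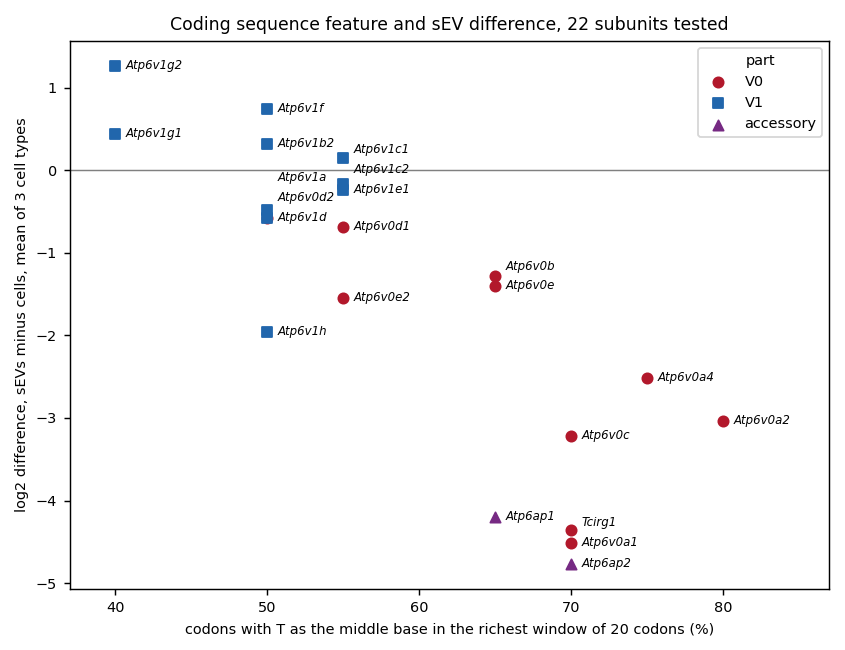
Mean sEV minus cell log2 difference (y axis) of the 22 subunit genes tested against the highest share of codons with T as the middle base in any window of 20 codons (x axis, %), with circles for V0, squares for V1 and triangles for accessory genes. Genes at 65% or more all lie below -1, the point of Atp6v0d2 is hidden behind that of Atp6v1d, and Atp6v1h is the lowest of the genes at 50%.

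Genes of the V-ATPase are known targets of TFEB and its relatives, which bind the palindrome TCACGTGA or its core CACGTG. RefSeq promoters (GRCm38.p6, 250 bases before to 50 after the start) were at hand for 9 of the 10 members, all but Atp6v1b2. The core was found in 4 of these 9, and in 7.15% of 32851 promoters. Members were counted as genes with a match in any of their promoters and the background as single promoters, so these shares differ in kind. The full palindrome, which contains the core, was found in 3, and in 0.974% of all promoters. Both read the same on either strand. The 30 bases around each core in the 3 members with the full palindrome are shown, 5′ to 3′ on the gene's strand, with the core in capitals, for Atp6v0d1 at chr8:105566050-105566079 (- strand), Atp6v0e at chr17:26676387-26676416 (+ strand) and Atp6v1a at chr16:44139373-44139402 (- strand). The fourth member with the core was Atp6v0b. A match is a description of letters, not a bound site.
Atp6v0d1: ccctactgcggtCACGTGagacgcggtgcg
Atp6v0e: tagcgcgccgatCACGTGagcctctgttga
Atp6v1a: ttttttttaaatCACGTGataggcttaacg

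The genes most like each sector were sought by Pearson's r with the sector's mean log2 level over the 18 libraries, among 13117 genes. For V0 these were Vmp1 (0.96), Rnf145 (0.95), Calr (0.94), Cadm1 (0.94) and Abhd16a (0.93). For V1 they included Snx10 (0.99), Arhgap30 (0.98), Tmem171 (0.98) and Igf1 (0.98). None of these genes was named for both sectors. The V1 mean was higher in all 6 microglia libraries than in any other library, and the 18 libraries come from only 6 groups.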

How the data were processed

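Poly(A) RNA of 18 libraries was analysed as normalized counts per gene, a signal deposited by the authors and made with Salmon 1.8.0 on GRCm39 and DESeq2, per the submitters' processing notes; the values are not divided by transcript length. Per the labels' protocols, cDNA was primed at the poly(A) tail and amplified with 15 PCR cycles, and the cell RNA was taken from a portion of the cultures that yielded the vesicles. Library totals of 36947428 to 69276566 are sums of normalized counts and not read depth. Whole reads could not be recovered, so no count model was used. Values were tested as log2(normalized count + 1) with limma 3.58.1 (R 4.3.3, trend) for genes at 10 or more in at least 3 libraries, 19612 genes over 18 libraries, 18410 over 9 cell and 15514 over 9 sEV libraries. Adjustment ran over all of these genes. The model was tested on data simulated with normal noise on the log2 scale. Single libraries at or near 0, as seen for Atp6v0a1, Atp6v0a2 and Atp6v0e2, were not simulated, so that test does not cover them. Members and lists were chosen with earlier results of these data known. The text gives fitted differences for all members, all other subunits tested, and of each further list the 3 with the smallest adjusted p for the mean of types. Alternatives were a pseudocount of 10, no filter, quantile normalization, equal totals (also without the 10 highest genes), a replicate block, only the 6 libraries of a cell type, and leaving out each replicate. Replicate numbers were not taken as pairs, since the labels do not say that they are. The main p-values thus treat cells and sEVs as independent libraries, although by the protocols the cell RNA came from cultures that yielded vesicles. Same-numbered deviations correlated at -0.04 to 0.04, which does not exclude pairing. Transcript lengths and coding sequences came from GENCODE vM21 (GRCm38), another build than the authors', and no coordinates were carried between builds.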

Additional observations from a re-analysis of the deposited data

Results flagged for a closer look

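The difference between sEVs and cells varied with the cell type for 7 members by limma's F test over the 3 types, adjusted over all genes tested. Values are given in the order astrocytes, microglia, neurons. In the V0 sector the first was Atp6v0c (adjusted p = 0.00016), with log2 differences of -3.73, -1.52 and -4.41. Next was Atp6v0e (adjusted p = 0.0041), with log2 differences of -2.27, -0.62 and -1.33. The third was Atp6v0d1 (adjusted p = 0.0294), with log2 differences of -0.88, -0.11 and -1.07. In the V1 sector the subunit B gene came first, Atp6v1b2 (adjusted p = 0.000139), with log2 differences of 1.12, -0.06 and -0.10. The peripheral stalk gene was Atp6v1e1 (adjusted p = 0.00171), with log2 differences of 0.09, 0.25 and -1.04. The central stalk gene was Atp6v1d (adjusted p = 0.0181), with log2 differences of -0.40, -0.18 and -1.15. The catalytic subunit gene was Atp6v1a (adjusted p = 0.0224), with log2 differences of 0.05, -0.41 and -1.10. Without neuron cells replicate 2 the test called 4 members. The calls of Atp6v0d1, Atp6v1a and Atp6v1d were each lost under some alternative.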

How the results depend on the processing

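Of the calls between sEVs and cells, 5 of 6 in astrocytes, 3 of 5 in microglia, 7 of 9 in neurons and 9 of 9 for the mean of types held under every alternative run, and all kept their sign. The calls lost under some alternative were Atp6v1f in astrocytes and neurons, Atp6v0e in microglia and Atp6v0a1 in microglia and neurons. The members higher in astrocyte sEVs numbered 1 without a filter, with equal totals, with the replicate block and with only the 6 astrocyte libraries. Those higher in microglia sEVs numbered 2 with equal totals, with or without the 10 highest genes, and those higher in neuron sEVs 0 with equal totals. Between astrocyte and neuron sEVs 1 member was called without a filter and 1 with the replicate block. The block, on replicate numbers that the labels do not say pair the samples, moved no other count of members called by over 1.5 times. Not every sample correlated best with its own number, though each neuron cell library did. The correlations were all near 0 and do not settle whether the numbers pair cells with sEVs. Over all genes, the calls for the difference between the astrocyte and neuron sEV effects numbered 999, and 566 with the block, and those between neuron sEVs and cells 5890, and 9383 with only the 6 neuron libraries. Leaving out a neuron cell library gave 567 to 578 in place of the 999, and leaving out a neuron sEV library gave 452 to 594 calls between astrocyte and neuron sEVs in place of 2309. The V0 minus V1 change in neurons was -1.11 with medians and -1.66 over all subunits tested.

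Leaving out 1 replicate gave 1 to 2 members higher and 4 to 5 lower in astrocytes, 3 to 5 lower in microglia, 0 to 1 higher and 7 to 8 lower in neurons, and 7 to 8 lower for the mean. The F test called 4 to 8, and astrocyte against neuron sEVs 0 to 2. The V0 minus V1 change ranged from -2.72 to -2.34 in astrocytes, -2.23 to -1.21 in microglia and -2.24 to -2.01 in neurons.

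For single genes, signs turned in 43 of the cases run, and the cause was not tested. With equal totals the astrocyte difference was -0.12 for Atp6v1a and -0.075 for Atp6v1e1, and the neuron difference -0.23 for Atp6v1g1. With quantile normalization, equal totals, and equal totals without the 10 highest genes, microglia gave 0.055, 0.21 and 0.25 for Atp6v0d1, 0.24, 0.25 and 0.29 for Atp6v1b2, 0.012, 0.14 and 0.18 for Atp6v1d. In the same order, astrocyte minus microglia cells gave 0.58, 0.72 and 0.68 for Atp6v0d1 and 0.15, 0.050 and 0.014 for Atp6v0e, and astrocyte minus neuron sEVs 0.0097, 0.026 and 0.069 for Atp6v0d1. Quantile normalization gave 0.18 for Atp6v0c between astrocyte and microglia cells and -0.15 for Atp6v1b2 between microglia and neuron cells. It gave -3.05 for Atp6v0a1 and 0.073 for Atp6v1b2 between astrocyte and microglia sEVs, 2.08 for Atp6v0a1 and -0.026 for Atp6v0b between microglia and neuron sEVs, and 0.19 for Tfe3 and 0.70 for Tfeb. Equal totals gave -0.046 for Atp6v1d between microglia and neuron cells. Leaving out 1 replicate at a time, signs also turned in microglia for Atp6v0d1 (-0.29 to 0.071, above 0 without sEV replicate 1), Atp6v0d2 (-0.23 to 0.30, below 0 without sEV replicate 1 or cells replicate 3) and Atp6v0e2 (-4.12 to 0.53, above 0 without sEV replicate 3). In astrocytes Atp6v1a ranged from -0.11 to 0.25, below 0 without sEV replicate 1. In neurons Atp6v1b2 ranged from -0.22 to 0.045, above 0 without cells replicate 2, and Atp6v1g1 from -0.032 to 0.22, below 0 without cells replicate 1 or sEV replicate 3. Between astrocyte and microglia cells Atp6v0d1 ranged from -0.098 to 0.015, above 0 without microglia replicate 3. Without microglia sEV replicate 1 Atp6v0a1 turned sign between astrocyte and microglia sEVs (-2.02 to 2.59) and between microglia and neuron sEVs (-3.51 to 1.10). For the mean of types Tfe3 ranged from -0.45 to 0.0045, above 0 without microglia sEV replicate 3, and Tfeb from -1.35 to 0.093, above 0 without astrocyte sEV replicate 1.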

Other observations

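The deposited table also holds a mean column for each group. For 5 of the 6 groups these means equal the mean of the 3 replicate columns in every gene with a value, the 10 members included. For microglia sEVs they do so in 1477 of 18481 genes and in 0 of the 10 members. The deposited means were not used, and every value above comes from the replicate columns.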
